A study of Caenorhabditis elegans with 2 samples.

Results

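The proteasome is the large protease that degrades proteins tagged with ubiquitin. The binding of the protein ZK546.5 near the genes for its subunits was examined in Caenorhabditis elegans by chromatin immunoprecipitation with sequencing (ChIP-seq). The genes were chosen by name, as the protein-coding genes of the ce11 annotation whose symbols start with pas-, pbs-, rpn- or rpt-, which gave 33 of 19985 protein-coding genes. Of these, 14 encode the core particle and 19 the regulatory particle. The study held 1 group with 2 biological replicates of third-stage (L3) larvae, taken as whole animals of both sexes and of unknown age. Both replicates were of strain OP231, which carries the mutation unc-119(ed3) on chromosome III and the integrated transgene wgIs231, from which ZK546.5 is expressed with GFP-FLAG at its C terminus. The promoter that drives the transgene is not stated in the labels, and there was no second condition.

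In the core particle, alpha subunits (PAS) form the outer rings that gate the entrance, and beta subunits (PBS) form the inner rings that hold the protease sites. The regulatory particle caps the core: its base carries a ring of ATPases (RPT) that unfold substrates, with further base subunits that bind ubiquitin or form a scaffold, and its lid holds the deubiquitinase RPN-11. In C. elegans the factor SKN-1 raises the transcription of proteasome genes when the proteasome is impaired. In this species a large share of RNAs undergo trans-splicing, in which a short leader replaces the original 5′ part of the RNA, and an annotated 5′ end may then lie downstream of the place where transcription starts.

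The upstream sequences of 5 genes show where the calls lay. They are given in the direction of the gene up to the base before its annotated 5′ end, and the 21 bases centred on the summit of the pooled call are in capitals. The sequences are from the RefSeq copy of the ce11 assembly (WBcel235). The genes pbs-1, rpn-3 and rpn-11 were shown because they had a peak in the thresholded set, and rpn-5 and rpt-1 because they had the best ranks outside that set. The gene pbs-2, which also had a thresholded peak, is not printed. The stretches are chrIV:1709746-1710045 on the minus strand for pbs-1, chrIII:8447053-8447352 on the plus strand for rpn-3, chrII:4044547-4044696 on the minus strand for rpn-11, chrII:4698428-4698720 on the minus strand for rpn-5 and chrV:11982398-11982547 on the minus strand for rpt-1. None overlapped an annotated exon of a protein-coding gene, and the stretch of rpn-3 overlapped 1 exon of the non-coding gene C30C11.14.
pbs-1: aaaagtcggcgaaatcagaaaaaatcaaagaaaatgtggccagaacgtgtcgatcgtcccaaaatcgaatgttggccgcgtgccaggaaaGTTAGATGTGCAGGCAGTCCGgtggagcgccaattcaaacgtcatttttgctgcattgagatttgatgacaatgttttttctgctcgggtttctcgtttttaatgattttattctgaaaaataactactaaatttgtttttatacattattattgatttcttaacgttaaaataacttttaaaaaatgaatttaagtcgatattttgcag
rpn-3: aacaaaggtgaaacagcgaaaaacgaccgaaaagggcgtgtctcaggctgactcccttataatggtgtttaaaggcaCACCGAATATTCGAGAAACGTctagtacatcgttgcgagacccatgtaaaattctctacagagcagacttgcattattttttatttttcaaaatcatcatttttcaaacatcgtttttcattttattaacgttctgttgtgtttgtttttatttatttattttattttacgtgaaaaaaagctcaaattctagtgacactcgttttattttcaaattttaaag
rpn-11: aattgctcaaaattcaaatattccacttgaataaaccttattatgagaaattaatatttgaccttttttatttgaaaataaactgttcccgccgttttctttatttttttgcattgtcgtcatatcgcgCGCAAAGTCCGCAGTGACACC
rpn-5: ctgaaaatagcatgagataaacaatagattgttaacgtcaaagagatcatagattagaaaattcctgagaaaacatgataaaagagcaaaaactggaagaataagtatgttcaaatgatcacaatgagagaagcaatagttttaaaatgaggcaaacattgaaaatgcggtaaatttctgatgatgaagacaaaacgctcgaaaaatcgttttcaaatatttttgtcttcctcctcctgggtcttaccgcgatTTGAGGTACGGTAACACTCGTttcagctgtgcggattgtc
rpt-1: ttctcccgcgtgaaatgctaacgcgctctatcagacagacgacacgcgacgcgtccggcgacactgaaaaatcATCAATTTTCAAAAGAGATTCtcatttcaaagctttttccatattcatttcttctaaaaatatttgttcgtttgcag

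The stretches differed in where the summit lay. In pbs-1 and rpn-3 it was 200 and 213 bp upstream of the 5′ end. In rpn-11 and rpn-5 it was 11 and 30 bp upstream, and in rpt-1 it was 67 bp upstream. The sequences of pbs-1, rpn-3 and rpt-1 ended in AG, the dinucleotide at which trans-splicing joins the leader, while those of rpn-11 and rpn-5 did not. GC content within the capitals was 57.1% for pbs-1, 42.9% for rpn-3, 61.9% for rpn-11, 47.6% for rpn-5 and 23.8% for rpt-1.

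Each call had a signal value, the peak caller's own measure as the submitters deposited it, and calls were ranked by it within their list, with 1 as the strongest. A gene was assigned the strongest call whose summit lay within 500 bp of its 5′ end. The pooled list and each replicate list held 30000 calls, and the submitters' thresholded set held 261 peaks, whose lowest signal value was 51.5. In every gene list counted, as many genes had a thresholded summit as had a pooled call of rank 261 or better. Counts of thresholded summits are therefore not separate evidence beside the pooled ranks. Pooled signal values ran from 12.97 to 1408 with a median of 17.5. The lists of 30000 calls include background by design, so a weak call need not mark binding. The files gave no read counts, so sequencing depth was unknown. Genes are not replicates, so counts over genes are given beside the same count over all protein-coding genes, with no test.

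Of the 33 proteasome genes, 4 had a thresholded summit (12.1%, against 1.22% of all protein-coding genes). They encode 2 beta subunits of the core, PBS-1 and PBS-2, and 2 subunits of the lid, RPN-3 and RPN-11. Taking from a single replicate as many of its strongest calls as there were thresholded peaks, the count was 2 of 33 with replicate 2 left out (against 0.976% of all protein-coding genes). With replicate 1 left out it was 3 of 33 (against 1.19%). Of the proteasome genes, 7 (21.2%) had a pooled call of rank 1000 or better, against 2.91% of all protein-coding genes. Any pooled call was present at 15 (45.5%, against 31.2%). The median rank of these 15 calls was 1089 and the median rank of the calls at all protein-coding genes 12435.5. In the single replicates the medians at proteasome genes were 4602 (replicate 1) and 5572 (replicate 2), and those at all genes 12929 and 12128.

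The strongest call at a proteasome gene was that of pbs-1, whose product is the beta subunit with caspase-like activity. Its summit on chromosome IV at position 1709945 had a signal of 301.04 and rank 51 in the pooled list. It had signal 134 and rank 51 in replicate 1, and signal 169 and rank 46 in replicate 2. The gene thus held nearly the same place in both replicates. The summit lay in intergenic sequence, 200 bp upstream of pbs-1 and 320 bp upstream of K08D12.3, which is transcribed the other way.

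The call at rpn-3, which encodes a scaffold subunit of the lid, had its summit on chromosome III at 8447140, with a pooled signal of 79.0 and rank 148. Replicate 1 gave signal 23.9 and rank 657, and replicate 2 gave signal 51.8 and rank 124. The call was therefore among the 261 strongest of replicate 2 and outside the 261 strongest of replicate 1. Its summit was about as far from rpn-3 (213 bp) as from the divergent gene hsp-110 (231 bp), which encodes a heat shock chaperone, and the start of C30C11.14, which makes a non-coding RNA, was nearer than both (45 bp).

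At rpn-11, the gene of the lid's deubiquitinase, the summit was on chromosome II at 4044557, with a pooled signal of 71.1 and rank 172. Replicate 1 gave signal 38.9 and rank 142, and replicate 2 gave signal 31.5 and rank 265. The replicate summits lay 2 and 1 bp from the pooled summit. No other gene of any kind began within 500 bp of this summit, so among the 4 genes in the thresholded set rpn-11 was the one with a call of its own.

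The call at pbs-2, whose product is the beta subunit with trypsin-like activity, was close to the edge of the thresholded set. Its summit on chromosome I at 12968670 had a pooled signal of 52.1 and rank 259. Replicate 1 gave signal 14.3 and rank 7833, and replicate 2 gave signal 38.7 and rank 194. Of the 248 thresholded peaks with a call within 200 bp in both replicates, 2 were weaker in replicate 1 than this one, and 8 had a larger ratio of replicate 2 to replicate 1 signal. The ratio was 2.71 here against a median of 1.22 over these peaks, while at pbs-1 it was 1.26, at rpn-3 2.17 and at rpn-11 0.81. The summit was nearer to eif-6, a gene for a translation factor that acts on the large ribosomal subunit (276 bp), than to pbs-2 (390 bp).

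**Figure D1:**
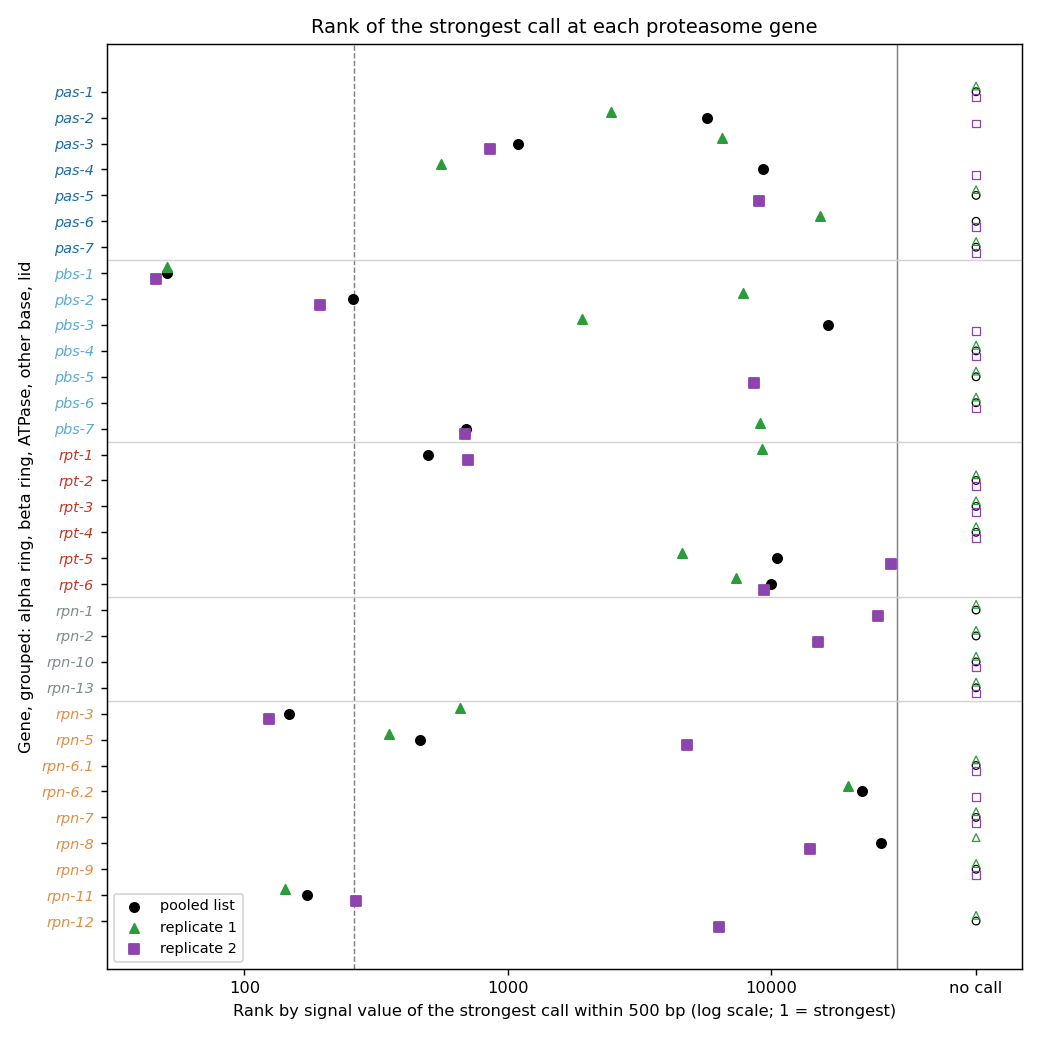
Rank by signal value (log scale, 1 = strongest) of the strongest call within 500 bp of each of the 33 genes in the pooled list (circles), replicate 1 (triangles) and replicate 2 (squares), with gene names coloured by subcomplex, open symbols where a list had no call, a dashed line at rank 261 and a solid line at the end of the lists (30000). All 3 symbols lie left of or close to the dashed line for pbs-1 and rpn-11, while those of pbs-2 are spread from 194 to 7833.

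The next ranks were held by a lid gene, an ATPase gene and a beta subunit gene. At rpn-5, which encodes a scaffold subunit of the lid, the summit on chromosome II at 4698457 had a pooled signal of 40.3 and rank 462, with signal 26.9 and rank 353 in replicate 1 and signal 12.7 and rank 4811 in replicate 2. At rpt-1, the summit on chromosome V at 11982464 had a pooled signal of 39.4 and rank 496, with signal 13.6 and rank 9220 in replicate 1 and signal 20.7 and rank 704 in replicate 2. The call at rpt-1 was shared with no other gene. At pbs-7, which encodes a beta subunit without a protease site, the summit on chromosome I at 8696456 had a pooled signal of 35.9 and rank 695, with signal 13.7 and rank 9048 in replicate 1 and signal 20.9 and rank 687 in replicate 2. These 3 summits were intergenic.

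The best calls at alpha subunit genes were weaker and lay in annotated exons. At pas-3, the summit on chromosome I at 5106235, 187 bp upstream in an untranslated exon, had a pooled signal of 32.4 and rank 1089, with signal 14.96 and rank 6524 in replicate 1 and signal 19.6 and rank 857 in replicate 2. At pas-2, the summit on chromosome V at 10770121, 247 bp upstream in an untranslated exon, had a pooled signal of 22.8 and rank 5710, with signal 18.5 and rank 2468 in replicate 1 and no call in replicate 2. At pas-4, the summit on chromosome I at 8728620, 133 bp upstream in a non-coding exon, had a pooled signal of 20.2 and rank 9296, with signal 24.6 and rank 556 in replicate 1 and no call in replicate 2. The replicates thus ranked pbs-2, rpt-1, pbs-7 and pas-3 far better in replicate 2, and rpn-5, pas-2 and pas-4 better in replicate 1 or in it alone.

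The remaining pooled calls were in the weaker part of the list. The ATPase genes rpt-6 and rpt-5 had ranks 10022 and 10543, with a call in both replicates. For rpt-5 the replicate ranks were 4602 and 28462, near the end of the list in replicate 2. The beta subunit gene pbs-3 (rank 16370) and rpn-6.2 (rank 22084), a second copy of the lid gene rpn-6.1, had a call in replicate 1 and none in replicate 2. The lid gene rpn-8 was last at rank 26221. Its summit was 441 bp downstream of the 5′ end in a coding exon, and it had a call in replicate 2 (rank 14019) and none in replicate 1.

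No pooled call lay within 500 bp of the other 18 genes. For 6 of them a single replicate had one, which was replicate 1 for pas-6 (rank 15345) and replicate 2 for rpn-12 (6333), pbs-5 (8620), pas-5 (9029), rpn-2 (15089) and rpn-1 (25399). PBS-5 is the beta subunit with chymotrypsin-like activity, so of the 3 catalytic beta subunit genes 2 had a thresholded peak and the third had no pooled call. The other 12 genes had no call in any list. They were pas-1, pas-7, pbs-4, pbs-6, rpt-2, rpt-3, rpt-4, rpn-6.1, rpn-7, rpn-9, rpn-10 and rpn-13. Neither replicate list had a call at these 12 of the 33 genes, nor at 10171 of all 19985 protein-coding genes. The nearest pooled summit was 519 bp away at rpn-6.1 (rank 21542) and 683 bp away at rpt-3 (rank 1095), just outside the window. It was 741 bp away at rpn-7 (rank 10482), 749 bp at pas-5 (rank 980) and 948 bp at rpt-4 (rank 25353). At rpt-2 it was 9945 bp away.

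In replicate 1, 15 of the 33 genes had a call within 500 bp (45.5%, against 31.3% of all protein-coding genes), and in replicate 2 it was 16 (48.5%, against 31.2%). A call in both replicates was found at 10 genes (30.3%, against 13.4%). At all 10 the replicate summits were within 200 bp of the pooled summit. Over these 10 genes Spearman's rho between the signal values of the replicates was 0.27, and it was 0.34 over the 2678 protein-coding genes with a call in both. Both are descriptions: the genes share the libraries, and both replicates were called against the same control file.

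**Figure D2:**
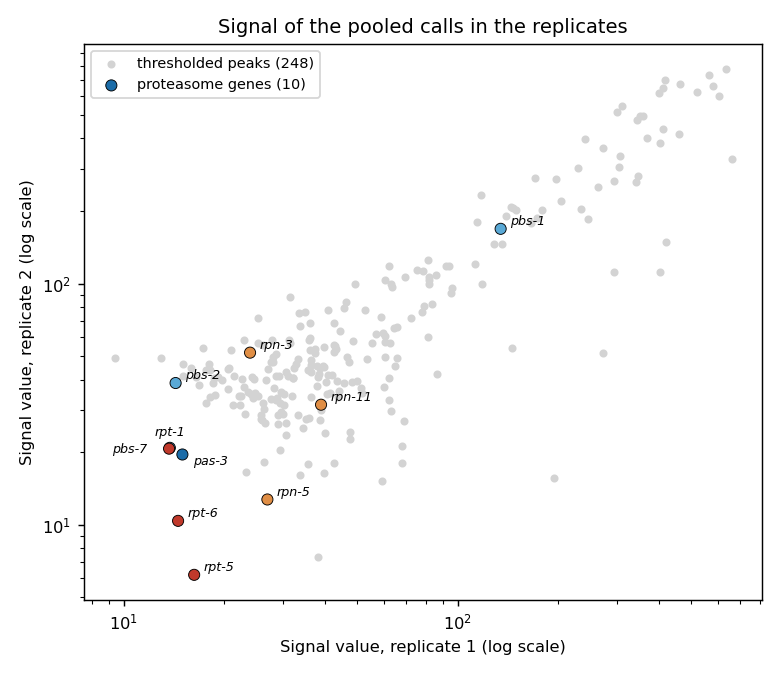
Signal value of calls in replicate 1 (x) and replicate 2 (y), both on log scales, for the 248 thresholded peaks found in both replicates (grey) and for the pooled calls of the 10 proteasome genes found in both (dark blue alpha ring, light blue beta ring, red ATPase, orange lid). The call of pbs-1 lies among the stronger peaks (134 and 169), and rpt-5, rpt-6 and rpn-5 have the lowest replicate 2 values of the 10 genes.

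In the thresholded set and in the full pooled list, core and regulatory particle genes had calls about equally often. A thresholded summit was found at 2 of 14 core genes (14.3%) and 2 of 19 regulatory genes (10.5%), against 1.22% of all protein-coding genes. A pooled call was found at 7 of 14 (50%) and 8 of 19 (42.1%), against 31.2%. The difference in the share with a pooled call was 7.89 percentage points, that is, 1 or 2 genes. It was 20.3 points in the list of replicate 1 and turned to -9.77 points in that of replicate 2, where 6 core and 10 regulatory genes had a call. It was also negative with a window of 1000 bp (-6.02 points) and with each call given to the nearest protein-coding 5′ end alone (-15.4 points). The direction of the difference was therefore not stable. At rank 1000 or better the counts were 3 core (21.4%) and 4 regulatory genes (21.1%), against 2.91% of all protein-coding genes. Among pooled calls of rank 10000 or better they were 6 core (42.9%) and 4 regulatory genes (21.1%), against 13.2%. The regulatory genes rpt-6 and rpt-5 fell just past that limit, at ranks 10022 and 10543. At rank 20000 or better the counts were 7 core (50%) and 6 regulatory genes (31.6%), against 22.7%. The median pooled rank was 1089 over the 7 core calls and 5259 over the 8 regulatory calls.

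Within the particles the counts of calls varied between subcomplexes, and they were too small to rank them. Over all protein-coding genes 1.22% had a thresholded summit and 31.2% a pooled call, with a median rank of 12435.5. The beta ring had 2 of 7 genes in the thresholded set and 4 of 7 with a pooled call, with a median rank of 477. The alpha ring had 0 of 7 and 3 of 7, with a median rank of 5710. The lid had 2 of 9 and 5 of 9 (median rank 462), and the ATPases 0 of 6 and 3 of 6 (median rank 10022). None of the 4 other base genes had a pooled call. These were rpn-1, rpn-2, rpn-10 and rpn-13, of which rpn-1, rpn-10 and rpn-13 encode ubiquitin receptors, and rpn-1 and rpn-2 had a weak call in replicate 2.

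**Figure D3:**
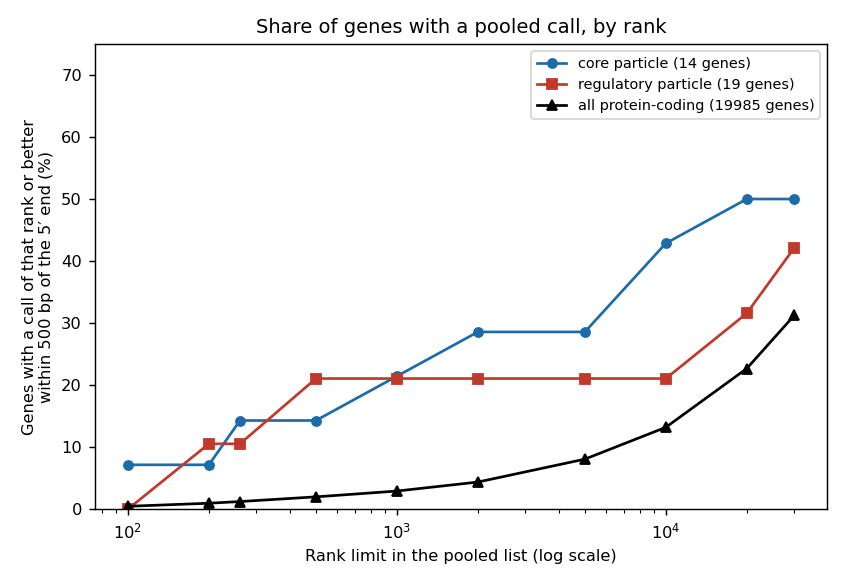
Percentage of genes with a pooled call within 500 bp of the 5′ end (y) at a given rank or better (x, log scale), for 14 core genes (blue circles), 19 regulatory genes (red squares) and all 19985 protein-coding genes (black triangles). Core and regulatory genes both stand at about 21% at rank 1000, where all genes stand at 2.91%, and they end at 50%, 42.1% and 31.2%.

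The calls at proteasome genes lay mostly upstream of the 5′ end and were often shared with a gene on the other strand. Of the 15 summits, 14 were upstream of the 5′ end (93.3%, against 61.7% of the genes with a pooled call). Their distances ran from 11 bp at rpn-11 to 390 bp at pbs-2, and rpn-8 with its summit downstream was the exception. By annotation 9 of the 15 summits were intergenic, and the same share over all genes with a pooled call was not computed. At 9 of the 15 genes (60.0%, against 17.2%) the summit was also within 500 bp of the 5′ end of another protein-coding gene, which was on the opposite strand in every case. At 7 of these 9 the summit lay between both 5′ ends, while at pas-2 and pas-3 it lay past the start of the neighbour. Neither trait was particular to proteasome genes among the gene lists described below. The upstream share was 98.3% for ribosomal protein genes, 100% for eIF3, 66.7% for CCT, 57.1% for genes that work with the proteasome and 33.3% for COP9. The shared part was 56.7%, 42.9%, 66.7%, 42.9% and 0% in the same order. These shares are of 60, 7, 3, 7 and 3 genes with a pooled call, so those of CCT and COP9 rest on few calls. At proteasome genes the shared calls were at 6 core genes, pbs-1, pbs-2, pbs-7, pas-2, pas-3 and pas-4, and at 3 regulatory genes, rpn-3, rpn-5 and rpt-5.

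The neighbour was nearer to the summit than the proteasome gene at 5 of these 9. These were eif-6 beside pbs-2, F39H11.1 beside pbs-7 (147 against 155 bp), use-1 beside pas-3 (31 against 187 bp), D1054.1 beside pas-2 (96 against 247 bp) and rad-8 beside rpt-5 (299 against 310 bp). At the other 4 the proteasome gene was nearer than the protein-coding neighbour. There the neighbours were K08D12.3 beside pbs-1, hsp-110 beside rpn-3, scc-1 beside rpn-5 (264 against 30 bp) and rpb-3 beside pas-4 (144 against 133 bp). At pas-4, as at rpn-3, a non-coding gene was nearer still (C36B1.16, 88 bp). SCC-1 is a cohesin subunit and RPB-3 a subunit of RNA polymerase II. A summit in a shared promoter does not show which of both genes it belongs to.

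Many proteasome genes have such a neighbour whether or not they have a call. An opposite-strand protein-coding 5′ end lay within 1000 bp upstream of 20 of the 33 genes (60.6%, against 17.4% of all protein-coding genes), leaving out genes with a gene on their own strand within 500 bp upstream. Of these 20, 10 had a pooled call (50%, against 36.9% of all such divergent genes) and 3 a thresholded summit (15%, against 4%). At 9 of the 10 the call was shared (90.0%, against 71.9%). Its summit lay upstream at 9 of the 10, against 942 of the 1282 divergent genes with a pooled call. The genes rpn-12 and rad-23, which encodes a shuttle protein that brings ubiquitinated substrates to the proteasome, begin 395 bp apart on opposite strands, and no pooled summit was within 500 bp of rpn-12.

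A gene on the same strand ended within 500 bp upstream of, or overlapped, 8 of the 33 genes, an arrangement that includes downstream genes of operons. Of these 8, 3 had a pooled call (37.5%, against 35.6% of all such genes), and rpn-11 had a thresholded summit (12.5%, against 0.943%). K07D4.2 ended 224 bp upstream of rpn-11 and had no pooled call at its own 5′ end. Following such runs to their first gene, a pooled call was found in 1 of the 8 cases, at mrpl-9 (rank 6294) upstream of rpn-10. Over all protein-coding genes 31.2% had a pooled call, and the first genes of all such runs were not counted apart. The other 5 of the 33 proteasome genes had neither kind of neighbour, and rpt-1 and rpt-6 among them had a pooled call (40.0%, against 28.2%).

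**Figure D4:**
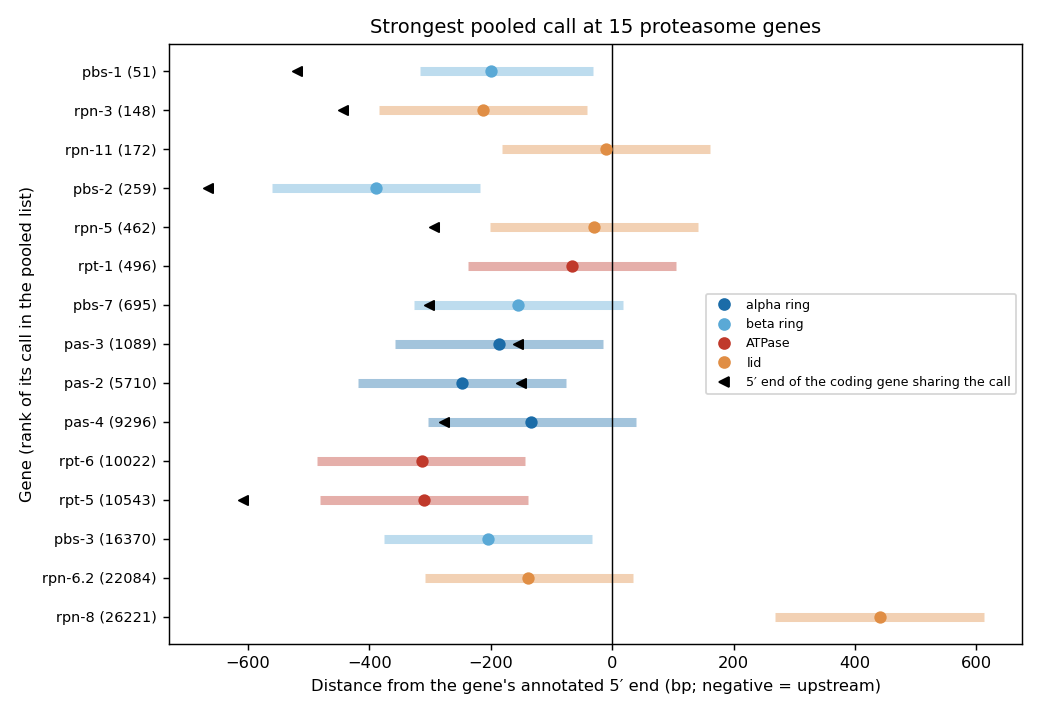
Strongest pooled call (bar) and its summit (circle) relative to the annotated 5′ end (0 on the x axis, in bp, negative upstream) of the 15 proteasome genes with a call, ordered by pooled rank and coloured by subcomplex, with the 5′ end of the protein-coding gene that shares the call as a black triangle. All summits except that of rpn-8 (441 bp downstream) are upstream, and 9 of the calls are shared with a divergent gene.

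The 2 bases before the annotated 5′ end were AG at 24 of the 33 genes (72.7%, against 27.6% of all protein-coding genes), and at 13 of the 14 core genes. At such a place a leader could be joined, and transcription may then start further upstream. Upstream summits lay at a median of 209 bp from these 5′ ends (10 genes, 67 to 390 bp) and at 84 bp from the others (4 genes, 11 to 155 bp). Over all protein-coding genes the medians were alike, at 242 bp with AG and 238 bp without it.

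The promoters were also searched for short words on both strands, over the 250 bases before and the 50 bases after each 5′ end. TGTCAT, which fits the sequence that SKN-1 binds, occurred in the promoters of 12 of the 33 genes (36.4%, against 16.3% of all protein-coding promoters). Those 12 were pas-2, pas-6, pbs-1, pbs-2, pbs-6, rpt-1, rpt-2, rpn-2, rpn-6.1, rpn-7, rpn-11 and rpn-12. Of these 12, 5 had a pooled call and 3 a thresholded peak. Among all 33 proteasome genes the counts were 15 (45.5%) and 4 (12.1%), and among all protein-coding genes the shares were 31.2% and 1.22%. Whether the word and the calls go together was not tested. TATCAT, which also fits the sequence that SKN-1 binds, occurred in 4 (12.1%, against 19.3%). In pbs-1 the word TGTCAT lay from 145 to 140 bases upstream, 55 bases from the summit, and is read as ATGACA in the sequence printed for that gene. Within 50 bases of the summit TGTCAT was found at 1 of the 15 calls, that of rpn-11, against 4.26% of the 5707 pooled calls assigned to protein-coding genes. The upstream stretch printed for rpn-11 does not hold it, so there the word lies past the annotated 5′ end.

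The other 4 words searched were taken from an earlier account of these data and were not chosen for proteasome genes. ACGCAG was in 0 of the 33 promoters (8.23% of all) and GACGCA, which overlaps it in ACGCA, was in 1 (3.03%, against 8.78%). CGAGAC was in 8 promoters (24.2%, against 8.08%), of which 1, that of rpn-3, belonged to a gene with a pooled call. Among all 33 proteasome genes 15 had a pooled call (45.5%), and among all protein-coding genes 31.2%. In rpn-3 it ran from 188 to 183 bases upstream, and its first base was 25 bases from the summit. ACCGTA was in 4 promoters (12.1%, against 8.11%). It is read as TACGGT in rpn-5, from 34 to 29 bases upstream, and the summit fell inside it. Within 50 bases of the summit ACCGTA was found at 2 of the 15 calls, those of rpn-5 and pas-4, against 3.15% of the pooled calls assigned to protein-coding genes. A match of letters is not a binding site, and GC content in 200 bp at the summits had a median of 34% at proteasome genes and 32.5% at all genes with a call.

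Other complexes gave a scale for these counts, to be read against the shares of all protein-coding genes (1.22% thresholded, 2.91% at rank 1000 or better and 31.2% with a pooled call). The COP9 signalosome and the translation factor eIF3 are built on the same kind of PCI and MPN domains as the lid. Of 6 COP9 genes found by name among 8 listed, 0 had a thresholded summit and 3 had a pooled call, the strongest at csn-5 (rank 8790) and csn-1 (rank 24128). Of 11 eIF3 genes found among 13 listed, 1 had a thresholded summit (9.09%), 4 had ranks of 1000 or better (36.4%) and 7 had a pooled call (63.6%). The strongest were at eif-3.C (rank 91, signal 121) and eif-3.I (rank 468). The last 2 of these shares were above those of the proteasome genes (21.2% and 45.5%), and the first was below theirs (12.1%). The chaperonin CCT, which like the core is built of stacked rings, had a thresholded summit at 2 of 8 genes, cct-1 (rank 124) and cct-8 (rank 127), and a pooled call at 3. Of protein-coding neighbours, mig-5 shared the call of cct-1, Y55F3AR.2 that of cct-8 and abtm-1 that of eif-3.I. The calls of eif-3.C, csn-5 and csn-1 were not shared with one.

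Genes that work with the proteasome had a thresholded summit about as often as the proteasome genes, and a pooled call about as often as all genes. Of 22 found among 23 listed, 3 had a thresholded summit (13.6%, against 1.22% of all protein-coding genes) and 7 a pooled call (31.8%, against 31.2%). In the replicate lists their shares were higher than those of all genes. A call was present at 11 in replicate 1 (50%, against 31.3%) and at 12 in replicate 2 (54.5%, against 31.2%). A call in both was found at 8 (36.4%, against 13.4%). The strongest pooled call was at cdc-48.1 (rank 55, signal 277), which encodes the ATPase that extracts ubiquitinated proteins from membranes and complexes, and the next at the ubiquilin gene ubql-1 (rank 217). Neither was shared with another protein-coding gene. Named after their values were seen, ubq-2 (rank 218), which encodes ubiquitin fused to a ribosomal protein, shared its peak with frg-1, and uba-1 (rank 951) encodes the ubiquitin-activating enzyme. Cytosolic ribosomal protein genes had calls more often than the proteasome genes: 31 of 78 had a thresholded summit (39.7%) and 60 a pooled call (76.9%). Over those 60 the median rank was 257.5, against 1089 over the 15 proteasome genes. The strongest calls were at rps-20 (rank 1, shared with ekl-4) and rps-19 (rank 5, shared with hsr-9).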

How the data were processed

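The deposited ce11 lists gave an interval, a summit and a signal value for each call. Per the deposited file notes, each replicate list was called from the alignments of that replicate and 1 control file, the pooled list from both replicates, and the thresholded set by the irreproducible discovery rate procedure. The labels name ZK546.5 as the antibody target; the aligner, caller, its settings and the threshold are not given in the sources used here. Signal values, as the authors deposited them, have a different scale in each list and served for ranks; ratios between replicates were read only against their median over peaks. Lists of 30000 calls include background by design, as their names in the notes say. The ce10 lists were not used. Summits (column 2 plus column 10, written 1-based) were compared with gene 5′ ends of Ensembl release 115 on the same assembly; 0 of the calls reached past the end of a chromosome. Calls of 2 lists were matched within 200 bp. Assignment was tested on simulated data. Python 3.11.15, numpy 2.4.6, pandas 2.3.3, scipy 1.17.1, matplotlib 3.10.9 and biopython 1.88 were used. The members, lists and words were chosen with earlier results of these data known. All 33 genes were named, in full those with a thresholded summit and the next 6 by rank, and in each comparison list the 2 strongest; ubq-2 and uba-1 were added after their values were seen. Upstream stretches are printed in place of windows around the summit. Alternatives changed the window, the assignment, the strength limit and the replicate used.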

Additional observations from a re-analysis of the deposited data

How the results depend on the processing

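The count of genes with any pooled call stayed within 1.5 times of 15 under all 9 alternatives, from 10 to 20. The count with a thresholded summit was 1 in the strongest 130 peaks and 2 to 3 with a replicate left out, and 3 to 4 otherwise. With a window of 1000 bp, 18 genes had a call in both replicates, the median rank was 2667, 15 genes shared their call and the difference between core and regulatory shares was -6.02 points. With a window of 250 bp, 5 shared it. With intervals in place of summits the median rank was 3399.5, and with the nearest 5′ end alone it was 4896 and the difference between shares -15.4 points. With a replicate left out the median rank was 4602 to 5572 and the difference -9.77 to 20.3 points. With wider windows all genes gain calls too: within 1000 bp 48.9% of protein-coding genes had a pooled call and 1.49% a thresholded summit. Within 250 bp the shares were 17.0% and 0.721%. Calls in both replicates and shared calls were not counted over all genes at these windows, so those counts have no share to be read against. Depth was unknown and 2 replicates give no firm spread. No paired analysis was possible because there was 1 group.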
